A study of Brassica napus with 12 samples.

Results

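The C-repeat binding factors CBF1 (AT4G25490), CBF2 (AT4G25470) and CBF3 (AT4G25480) were followed, with 7 of the genes known in Arabidopsis as their cold-regulated targets, COR15A (AT2G42540), COR15B (AT2G42530), RD29A (AT5G52310), KIN1 (AT5G15960), KIN2 (AT5G15970), COR47 (AT1G20440) and ERD10 (AT1G20450), in true leaves of Brassica napus. Loci were taken as members where the deposited tables name 1 of these 10 Arabidopsis genes as the closest match. This gave 21 loci among the 101040 in the tables. They carry 6 of the 10 Arabidopsis names, with 7 loci matched to CBF1, 2 to CBF2, 5 to COR15B, 4 to KIN2, 1 to COR47 and 2 to ERD10. No locus was matched to CBF3, COR15A, RD29A or KIN1. The match is to 1 nearest Arabidopsis gene, so copies of a close relative, such as COR15A beside COR15B or KIN1 beside KIN2, may stand under the other name.

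CBFs are AP2-type transcription factors that bind a short element in the promoters of cold-regulated genes. In Arabidopsis, cold raises CBF transcripts within hours and the target transcripts follow. CBF transcripts are also set by the circadian clock, light quality and touch. The targets encode hydrophilic proteins that protect membranes and other proteins when cells lose water: COR15A and COR15B act in the chloroplast stroma, COR47 and ERD10 are acidic dehydrins, and KIN1 and KIN2 are small hydrophilic proteins. Several of them, KIN2, RD29A and ERD10 among them, also respond to abscisic acid and drought, so a change in these genes is not specific to cold. None of the plants described here was given a cold treatment.

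The study used RNA-seq of leaves to compare responses to UV-B, to larvae of the diamondback moth Plutella xylostella and to methyl jasmonate (MeJA), a volatile form of a defence hormone. All 6 groups were plants of the RV31 genotype, 21 days old and grown under white light of 70 µmol m−2 s−1, and each group is represented by 2 libraries with the replicate numbers 41 and 42. The 3 sprayed groups received 4 mL of solution and were harvested 4 h later. They were MeJA (100 µM), its solvent control of 0.01% ethanol with 0.01% of the wetting agent UN65, and distilled water. The 3 unsprayed groups were UV-B (3 µmol m−2 s−1 for 4 h), herbivory (1 h of larval feeding) and white light (70 µmol m−2 s−1 with no UV-B), the control of the UV-B group. According to the study's methods, UV-B and white light plants had spent the night before treatment in dimmer white light, sprayed plants were then kept under propagator covers in dimmer white light, and herbivory plants stood in mesh cages in dimmer white light in a slightly warmer cabinet. Spraying and covering therefore cannot be told apart between sprayed and unsprayed groups. Against the UV-B and white light groups, light level cannot be told apart from them either. Herbivory plants shared the dimmer light, so the unsprayed average mixes light levels. The methods state that independent replicates were pooled, while the series' design text speaks of biological replicates being sequenced, so it is not settled whether each library is a pool or a single replicate. The p-values cover only the spread between these libraries, which may be partly technical.

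Values are FPKM (fragments per kilobase of transcript and depth of library). A single divisor brought each library to a common level, namely the median over loci of its value relative to the average of the 12, and the results are called scaled FPKM. The divisors were between 0.989 and 1.04 for the 6 sprayed libraries and between 0.716 and 0.956 for the 6 unsprayed ones, and every level set across them rests on this 1 divisor per library. The number of reads is not given. Correlations of log2 values between libraries were 0.874 to 0.927 within groups and 0.745 to 0.929 between groups. Leaf markers were abundant in every library, with summed levels of 7028 to 16200 scaled FPKM in sprayed and 5958 to 25157 scaled FPKM in unsprayed libraries over the 4 of 5 marker genes that had a locus. The 5 root markers summed to at most 1.19 scaled FPKM in any library, with PYK10, COBL9, RHD6 and EXPA7 under 1, and the 5 flower markers to at most 4.48 scaled FPKM, with AG, SEP3 and AMS under 1.

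A locus was tested where at least 2 libraries reached 1 scaled FPKM. Of the 21 member loci, 12 were among the 50280 tested loci: 1 for CBF1, 5 for COR15B, 3 for KIN2, 1 for COR47 and 2 for ERD10. Of the other 9, 4 were listed at 0 in every library and 5 had a value somewhere but stayed under the filter. Differences are given on the scale of log2(scaled FPKM + 1), which understates the change of low loci, and were tested with limma in 1 fit of all 12 libraries. A locus was called where the Benjamini-Hochberg adjusted p over all tested loci was under 0.05 and the log2 difference was at least 1 in size. In leaf tissue, fewer cells with a transcript and less transcript per cell cannot be told apart.

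CBF transcripts were close to the detection limit in all 12 libraries. Of the 9 CBF loci, 3 were listed at 0 throughout. Summed over all 9, CBF loci reached 0.112 to 0.549 scaled FPKM in the 6 sprayed libraries (median 0.503) and 0.209 to 5.93 scaled FPKM in the 6 unsprayed libraries (median 1.97). The ranges overlap because both herbivory libraries, at 0.365 and 0.209 scaled FPKM, lay within the sprayed range.

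The CBF1 locus BnaC03g71900D, on an unplaced scaffold of C03 (417519 to 418260), was the only CBF locus that could be tested. It had 0 and 0.128 scaled FPKM with MeJA, was listed at 0 in both ethanol and UN65 libraries, and had 0.254 and 0 with water. In the unsprayed groups it had 1.20 and 2.05 scaled FPKM under UV-B, 0 and 0.209 after herbivory, and 0.196 and 3.88 in white light. Only 3 libraries, both of UV-B and white light 42, exceeded 1 scaled FPKM. Sprayed minus unsprayed was −0.84 on the log2 scale (SE 0.31, adjusted p = 0.0954 in limma), which did not pass the test.

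The CBF2 locus BnaC07g39680D (C07, 40421313 to 40422224) did not pass the filter. Its levels were 0.293 and 0.397 scaled FPKM with MeJA, 0 and 0.112 with ethanol and UN65, 0.295 and 0.166 with water, 0.936 and 0.432 under UV-B, 0.0893 and 0 after herbivory, and 0.606 and 0.839 in white light. Herbivory and solvent libraries were the lowest for this locus and the UV-B and white light libraries the highest.

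In 10 of the 12 libraries low FPKM values fall on steps of whole reads, which allows the reads behind these CBF values to be counted. The steps could not be found in ethanol and UN65 41 or in UV-B 41. All values of the 4 CBF loci with reads in the other 10 libraries came within 0.05 reads of a whole number, inside the tolerance of 0.2. The size of 1 read was fitted at each locus to bring its values near whole numbers, with the lowest value above 0 taken as 1 read. The closeness is therefore partly built in, and the counts rest on that assumption. CBF1 BnaC03g71900D had 3 reads in 5 sprayed libraries and 39 reads in 5 unsprayed libraries, of which 25 were in white light 42 and 11 in UV-B 42. CBF1 BnaA03g13620D had 4 reads in the sprayed and 7 in the unsprayed libraries, all 7 of them in white light 42. CBF2 BnaAnng34260D had 1 read in the sprayed and 9 in the unsprayed libraries, and CBF2 BnaC07g39680D had 13 in the sprayed and 15 in the unsprayed libraries. In the libraries counted, the excess of unsprayed CBF reads thus came mainly from white light 42 and UV-B 42, with few reads in white light 41. UV-B 41 could not be counted, but its CBF loci summed to 2.98 scaled FPKM, against 3.07 in UV-B 42. At these counts differences of individual CBF loci between groups were not resolvable.

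**Figure D1:**
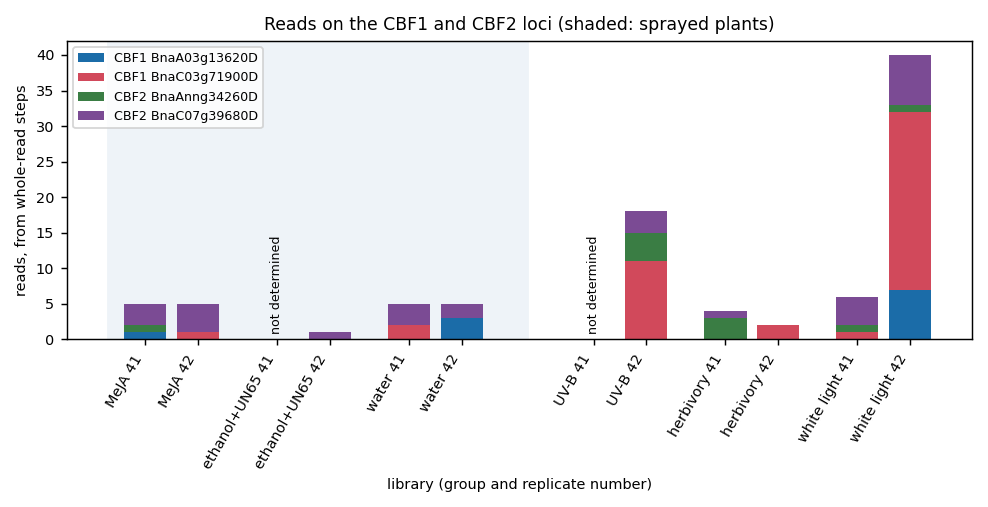
Reads on 4 CBF loci in each library, derived from the whole-read steps of the FPKM values; bars are stacked by locus, the shaded libraries are from sprayed plants, and ethanol and UN65 41 and UV-B 41 could not be determined. White light 42 holds more reads than any other library shown, with 25 on CBF1 BnaC03g71900D, and UV-B 42 holds 11 on that locus.

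The COR-type loci were far more abundant, and 10 of the 11 tested were called lower in sprayed than in unsprayed leaves. All 12 tested members had a negative log2 difference for sprayed minus unsprayed, and 10 of the 12 were called lower, against 5.22% of all tested loci called lower. For 3 of the 12, CBF1 BnaC03g71900D, COR15B BnaA03g56740D and KIN2 BnaA10g18350D, no sprayed library reached 1 scaled FPKM, so they passed the filter only through unsprayed libraries and their direction was fixed by it. The other 9, each with a sprayed library above that level, were all called lower (median −2.74). The median log2 difference was −2.71 over the members, against −0.02 over all loci. The exceptions were CBF1 BnaC03g71900D, above, and COR15B BnaA03g56740D (−2.04, SE 0.71, adjusted p = 0.0777). All 6 sprayed libraries lay below all 6 unsprayed ones at 3 loci, COR15B BnaC03g23770D, COR47 BnaA07g11450D and ERD10 BnaC05g15780D, against 2.53% of tested loci with this separation. Summed over the 11 tested COR-type loci, sprayed libraries had 118 to 481 scaled FPKM (median 189) and unsprayed libraries 357 to 7772 scaled FPKM (median 1782).

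**Figure D2:**
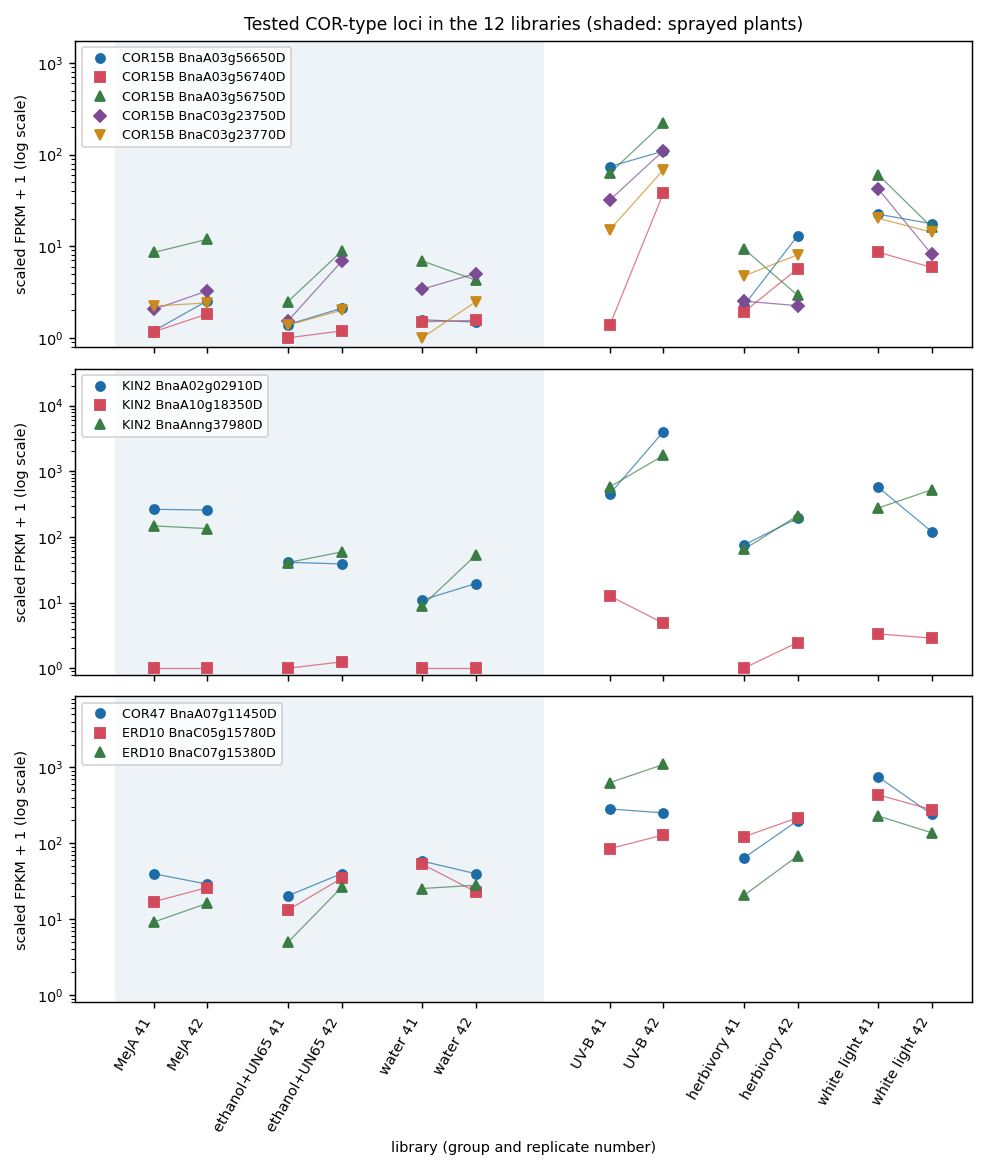
Levels of the 11 tested COR-type loci in each of the 12 libraries, as scaled FPKM + 1 on a log axis; thin lines join the 2 libraries of a group, and the shaded libraries are from sprayed plants. Summed levels span 118 to 481 scaled FPKM in sprayed libraries and 357 to 7772 scaled FPKM in unsprayed ones, and UV-B 42 is the highest library at 8 of the 11 loci.

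The split of calls over all loci depended on the scaling, and the count of members called did not. Of all tested loci, 1261 were called higher and 2623 lower in sprayed leaves. With values as deposited the split was 2599 higher and 1748 lower, and with equal library totals 1869 higher and 1875 lower. Under both of these scalings 10 members were still called lower, and their median log2 difference was −2.43 and −2.50, where the median of all loci was 0.18 and 0.12. The count depended more on which groups were averaged. With white light alone as the unsprayed side 5 members were called (median −2.68), with herbivory alone 1 (median −1.22) and with UV-B alone 10 (median −4.17). Without MeJA and UV-B in the averages 5 members were called, at a median of −2.39. The shares of all loci called under these averages are not given here. A fall in the member count can therefore not be told apart from a general loss of calls. Over the 50 loci listed around each tested member, the median log2 deviation in sprayed minus unsprayed libraries was between −0.09 and 0.13. CBF1 BnaC03g71900D, the COR15B loci on A03 and KIN2 BnaAnng37980D lie on unplaced sequence. Their windows are therefore not known stretches of the genome.

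COR15B, the chloroplast protein, had 5 loci, and all 5 were tested. BnaA03g56650D (805704 to 806935), BnaA03g56740D (846787 to 848083) and BnaA03g56750D (858908 to 859882) lie on unplaced sequence of A03, and BnaC03g23750D (13250299 to 13251194) and BnaC03g23770D (13254481 to 13255809) lie on C03. Neighbouring copies can share reads, so levels of single copies are less certain than their sum. The 5 loci together had 10.2 and 16.9 scaled FPKM with MeJA, 2.78 and 15.9 with ethanol and UN65, 9.40 and 9.81 with water, 180.1 and 545 under UV-B, 15.8 and 26.9 after herbivory, and 149 and 57.0 in white light. UV-B and white light libraries stood above all sprayed libraries, while herbivory 41 fell inside the sprayed range.

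COR15B BnaA03g56650D was almost silent in sprayed leaves, with 0.192 and 1.54 scaled FPKM with MeJA, 0.396 and 1.1 with ethanol and UN65, and 0.575 and 0.483 with water. It had 73.1 and 108 scaled FPKM under UV-B, 1.25 and 12 after herbivory, and 21.4 and 16.6 in white light. The only overlap was between herbivory 41 and MeJA 42. The log2 difference of sprayed minus unsprayed was −3.68 (SE 0.41, adjusted p = 0.00415 in limma), the largest of any member in this comparison.

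On C03, COR15B BnaC03g23770D had 1.22 and 1.41 scaled FPKM with MeJA, 0.375 and 1.00 with ethanol and UN65, and 0 and 1.47 with water. It had 14.1 and 67.4 scaled FPKM under UV-B, 3.74 and 7.05 after herbivory, and 19.2 and 13.2 in white light. All unsprayed libraries, herbivory included, were above all sprayed ones, with a log2 difference of −3.04 (SE 0.39, adjusted p = 0.00495).

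The other pair of named COR15B copies did not share the herbivory position. BnaA03g56750D had 7.56 and 10.9 scaled FPKM with MeJA, 1.49 and 7.80 with ethanol and UN65, 5.93 and 3.26 with water, 61.6 and 222 under UV-B, 8.38 and 1.92 after herbivory, and 59.7 and 15.2 in white light. BnaC03g23750D had 1.04 and 2.26 scaled FPKM with MeJA, 0.527 and 5.82 with ethanol and UN65, 2.39 and 4.03 with water, 30.9 and 109.6 under UV-B, 1.52 and 1.24 after herbivory, and 41.6 and 7.17 in white light. Both herbivory libraries of these 2 loci lay within the range of the sprayed libraries, and with herbivory alone as the unsprayed side their log2 differences turned positive, at 0.28 and 0.45. Averaged over groups, sprayed minus unsprayed was −2.08 (SE 0.52, adjusted p = 0.0298) for BnaA03g56750D and −2.09 (SE 0.53, adjusted p = 0.0307) for BnaC03g23750D. The remaining copy, BnaA03g56740D, was the lowest of the 5, with a median of 0.341 scaled FPKM in sprayed and 4.77 scaled FPKM in unsprayed libraries. Its UV-B libraries differed by a factor of 101, at 0.369 scaled FPKM in UV-B 41 and 37.2 scaled FPKM in UV-B 42.

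KIN2, a small hydrophilic protein induced by cold and abscisic acid in Arabidopsis, gave the highest value of any member in a single library, 4017 scaled FPKM in UV-B 42. That locus, BnaA02g02910D (A02, 1297884 to 1298553), had 262 and 255 scaled FPKM with MeJA, 40.1 and 37.7 with ethanol and UN65, 9.89 and 18.4 with water, 449 and 4017 under UV-B, 74.3 and 191 after herbivory, and 572 and 119 in white light. Sprayed and unsprayed libraries overlapped here because both MeJA libraries lay above herbivory 41, herbivory 42 and white light 42. The log2 difference of sprayed minus unsprayed was −2.71 (SE 0.59, adjusted p = 0.0198).

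KIN2 BnaAnng37980D, on an unplaced scaffold of the A genome (43016491 to 43016993), had the same order of groups by mean. Its levels were 146 and 133 scaled FPKM with MeJA, 39.6 and 58.0 with ethanol and UN65, 7.87 and 51.5 with water, 576 and 1737 under UV-B, 63.4 and 209 after herbivory, and 273 and 520.1 in white light. Again the MeJA libraries overlapped with herbivory, and the log2 difference was −2.74 (SE 0.52, adjusted p = 0.0127).

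KIN2 BnaA10g18350D (A10, 13324268 to 13325166) was listed at 0 in 5 of the 6 sprayed libraries and at 0.247 scaled FPKM in ethanol and UN65 42. It had 11.6 and 3.84 scaled FPKM under UV-B, 0 and 1.46 after herbivory, and 2.33 and 1.87 in white light. Herbivory 41 was the only unsprayed library at 0. It was called lower in sprayed leaves (adjusted p = 0.00960), a direction fixed by the filter, which it passed only through unsprayed libraries. No fold is given against a level of 0. The KIN2 locus on C09, BnaC09g41890D, was listed at 0 in all 12 libraries.

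The dehydrin COR47 had 1 locus, BnaA07g11450D (A07, 10640881 to 10642008). It had 38.7 and 27.9 scaled FPKM with MeJA, 19.4 and 38.7 with ethanol and UN65, 57.3 and 38.8 with water, 282 and 250.3 under UV-B, 63.0 and 197 after herbivory, and 752 and 240.3 in white light. The highest sprayed library, at 57.3, was just under the lowest unsprayed one, at 63.0. The log2 difference was −2.70 (SE 0.39, adjusted p = 0.00633).

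ERD10, the dehydrin closest to COR47, had 1 locus on each of C05 and C07. BnaC05g15780D (C05, 9625055 to 9626614) had 16.0 and 25.1 scaled FPKM with MeJA, 12.2 and 33.6 with ethanol and UN65, 52.2 and 22.0 with water, 84.0 and 128 under UV-B, 121 and 216 after herbivory, and 434 and 276 in white light. No sprayed library reached the lowest unsprayed one, and the log2 difference was −2.85 (SE 0.34, adjusted p = 0.00435).

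ERD10 BnaC07g15380D (C07, 21301153 to 21302253) had 8.18 and 15.2 scaled FPKM with MeJA, 3.96 and 25.3 with ethanol and UN65, 24.3 and 27.0 with water, 629 and 1091 under UV-B, 19.6 and 66.9 after herbivory, and 228 and 137 in white light. Herbivory 41 lay inside the sprayed range. The log2 difference was −3.51 (SE 0.46, adjusted p = 0.00507).

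**Figure D3:**
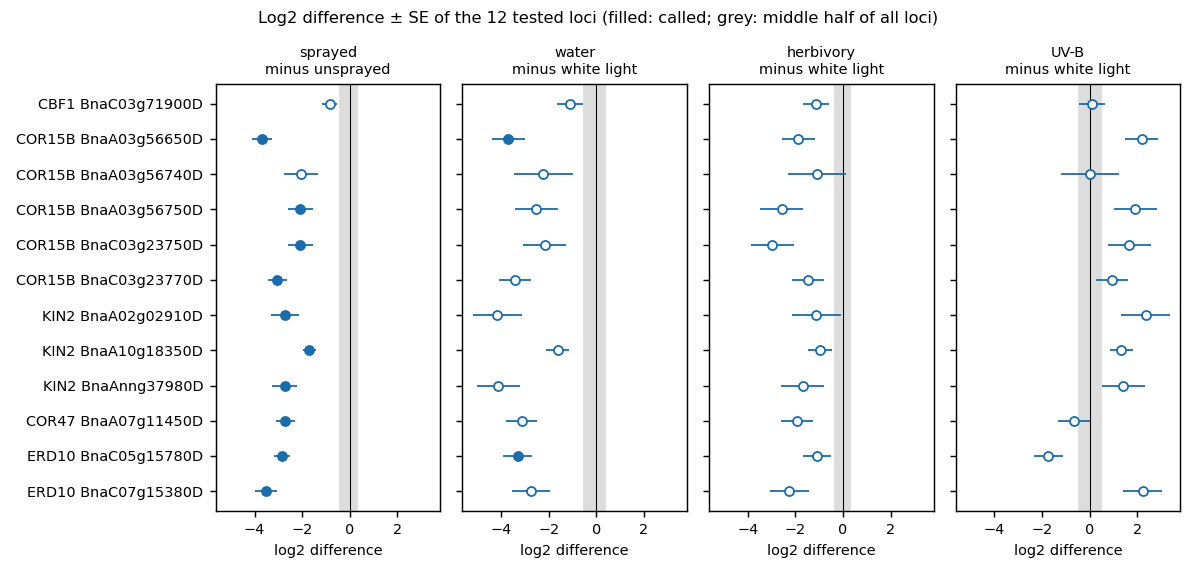
Log2 difference with its standard error for the 12 tested members in 4 comparisons; filled points were called, and the grey band spans the lower to the upper quartile of all tested loci. All members lie left of 0 for sprayed minus unsprayed (10 called), water minus white light (2 called) and herbivory minus white light (0 called), and 10 of 12 lie right of 0 for UV-B minus white light (0 called).

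Water-sprayed leaves set against white light leaves gave the same direction with only 2 groups involved. Both groups are also part of the sprayed and unsprayed averages, so this is not a separate check of the direction. All 12 tested members were lower with water, including the 3 that passed the filter only through unsprayed libraries, and both water libraries lay below both white light libraries at all 11 COR-type loci. The share of all tested loci with that order was not counted, so the 11 are a description. Of the 12, 2 were called lower, against 0.712% of all tested loci called lower, and 10 had an unadjusted p under 0.05, against 20.1% of all tested loci. The called loci were COR15B BnaA03g56650D, with 0.575 and 0.483 scaled FPKM with water against 21.4 and 16.6 scaled FPKM in white light (log2 difference −3.70, SE 0.71, adjusted p = 0.0492), and ERD10 BnaC05g15780D, with 52.2 and 22.0 scaled FPKM against 434 and 276 scaled FPKM (−3.31, SE 0.60, adjusted p = 0.0449). Both adjusted p lie just under the threshold, and the count was 0 without either water library or either white light library. KIN2 BnaA02g02910D had the largest log2 difference, −4.17 (SE 1.03, adjusted p = 0.0747), and did not pass. The median over members was −2.94. Comparisons of UV-B, herbivory and water with white light share the 2 white light libraries, so their directions are not independent.

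No member passed the test for UV-B minus white light in limma, against 3.54% of all tested loci called. By group mean UV-B was the highest of the 6 groups at 9 of the 11 COR-type loci and white light at the other 2, and the unsprayed groups took the first 3 places at 7. Neighbours in this order, UV-B and white light, white light and herbivory, or herbivory and water, did not pass the test at any member. Of the 12 tested members, 10 had a positive log2 difference and 2 a negative one, with a median of 1.37, and 5 had an unadjusted p under 0.05, against 21.9% of all tested loci. The smallest adjusted p was 0.120, for COR15B BnaA03g56650D (log2 difference 2.18, SE 0.71). Both UV-B libraries exceeded both white light libraries at 5 loci and lay below them at 1, ERD10 BnaC05g15780D. Shares of all tested loci with these separations were not counted.

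The UV-B and white light libraries varied within their groups. UV-B 42 exceeded UV-B 41 at 9 of the 11 COR-type loci, by a factor of 8.94 at KIN2 BnaA02g02910D and 3.55 to 4.77 at COR15B BnaA03g56750D, BnaC03g23750D and BnaC03g23770D. White light 41 exceeded white light 42 at 10 of the 11, by a factor of 4.80 at KIN2 BnaA02g02910D and 5.80 at COR15B BnaC03g23750D. In contrast, white light 42 had most of the CBF1 reads in the 10 libraries where reads could be counted. Leaving out UV-B 42 took the member median of UV-B minus white light to 0.69, and leaving out UV-B 41 took it to 2.31.

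The 2 ERD10 loci moved in opposite directions under UV-B by point estimate. BnaC07g15380D was higher, with 629 and 1091 scaled FPKM under UV-B against 228 and 137 scaled FPKM in white light (log2 difference 2.22, SE 0.80, adjusted p = 0.155). BnaC05g15780D was lower, with 84.0 and 128 scaled FPKM under UV-B against 434 and 276 scaled FPKM in white light (−1.73, SE 0.60, adjusted p = 0.138). Neither passed the test. The ratio of BnaC07g15380D to BnaC05g15780D, which is free of the library scaling, was 7.49 and 8.53 in the UV-B libraries and between 0.162 and 1.23 in the other 10. With 2 libraries in the UV-B group this ratio is given as a description, chosen after its values were seen.

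**Figure D4:**
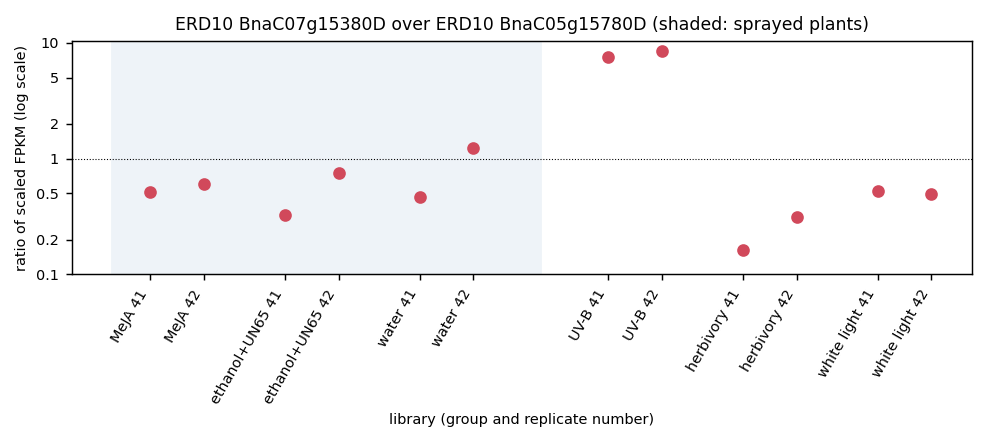
Ratio of the scaled FPKM of ERD10 BnaC07g15380D to that of ERD10 BnaC05g15780D in each library, on a log axis, with a dotted line at 1; the shaded libraries are from sprayed plants. The UV-B libraries stand at 7.49 and 8.53, and the other 10 libraries between 0.162 and 1.23.

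For herbivory minus white light no member passed the test in limma, against 0.0219% of all tested loci called, although values after herbivory were mostly lower. All 12 members had a negative log2 difference, from −2.97 to −0.98 with a median of −1.58, and 5 had an unadjusted p under 0.05, against 9.12% of all tested loci. The smallest adjusted p was 0.388, for COR15B BnaC03g23750D. Both herbivory libraries lay below both white light libraries at 10 of the 11 COR-type loci, and the herbivory group was the lowest of the unsprayed groups at 10. How many of all tested loci share these orders was not counted. Herbivory 42 was above herbivory 41 at 9 of the 11 loci, for example at 12 against 1.25 scaled FPKM for COR15B BnaA03g56650D.

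Herbivory and water-sprayed plants were both kept in dimmer white light, and by group mean herbivory lay above water and below white light at 10 of the 11 COR-type loci. Of the 12 members, 9 were higher after herbivory than with water, with a median log2 difference of 1.17 against 0.02 over all loci. No member passed in limma, against 1.06% of all tested loci called, and 5 had an unadjusted p under 0.05, against 18.3%. Both herbivory libraries exceeded both water libraries at 7 of the 11 COR-type loci, and exceeded all 6 sprayed libraries at 4. These counts are a description, since the matching shares of all tested loci were not counted. The smallest adjusted p was 0.1004, for ERD10 BnaC05g15780D, with 121 and 216 scaled FPKM after herbivory against 52.2 and 22.0 scaled FPKM with water (log2 difference 2.22, SE 0.60). For KIN2 BnaA02g02910D the log2 difference was 3.05 (SE 1.03, adjusted p = 0.163), for KIN2 BnaAnng37980D it was 2.43 (SE 0.90, adjusted p = 0.199), and for COR15B BnaC03g23770D it was 1.97 (SE 0.68, adjusted p = 0.168). Differences in cabinet, cage and cover were not tested.

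Among the sprayed groups, both MeJA libraries stood above all 4 solvent and water libraries at 2 member loci, both of KIN2, while the KIN2 locus on A10 was listed at 0 with MeJA. The share of all tested loci with MeJA in that position was not counted. No member passed the test for MeJA minus water in limma, against 0.449% of all tested loci called, and 2 had an unadjusted p under 0.05, against 7.16%. These were the KIN2 loci BnaA02g02910D, with 262 and 255 scaled FPKM with MeJA against 9.89 and 18.4 scaled FPKM with water (log2 difference 4.16, SE 1.03, adjusted p = 0.172), and BnaAnng37980D, with 146 and 133 scaled FPKM against 7.87 and 51.5 scaled FPKM (2.70, SE 0.90, adjusted p = 0.413). The median over members was −0.03. Against ethanol and UN65 the log2 differences of these loci were 2.70 (adjusted p = 0.480) and 1.52 (adjusted p = 0.712). No member passed in that comparison either, against 0.00398% of all tested loci, and 1 had an unadjusted p under 0.05, against 8.73%.

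No member separated the solvent from water. For ethanol and UN65 minus water no member passed in limma, against 0.00398% of all tested loci called, and none had an unadjusted p under 0.05, against 2.97%. The log2 differences ranged from −1.22 to 1.45, so differences of that size between these groups were not resolvable at these loci with 2 libraries each.

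Genes known to act upstream of the CBFs did not move as a group with spraying. This list held 16 genes, among them the activators ICE1 and CAMTA3, the repressors MYB15 and PIF4, and the clock genes CCA1 and LHY, with 56 of 87 loci tested. For sprayed minus unsprayed 3 were called higher, against 2.51% of all tested loci, and 1 lower, against 5.22%, with a median of 0.05. ICE1 BnaC02g36310D was higher, with 5.36, 10.1 and 13.0 scaled FPKM (lowest, median and highest) in sprayed libraries against 1.18, 2.19 and 6.19 scaled FPKM in unsprayed ones (log2 difference 1.52, adjusted p = 0.0158). PIF4 BnaC04g48630D was higher as well, with 2.1, 3.79 and 4.91 scaled FPKM against 0.163, 0.484 and 1.62 scaled FPKM (log2 difference 1.46, adjusted p = 0.00476). CCA1 BnaC04g00590D was lower, with 0, 0.0146 and 3.35 scaled FPKM against 3.39, 15.8 and 30.9 scaled FPKM (log2 difference −3.44, adjusted p = 0.00681). Of the sprayed groups only ethanol and UN65 had a mean over 1 scaled FPKM for CCA1 (1.68). The CCA1 locus passed the filter through unsprayed libraries, which favours this direction.

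Of the other transcription factors that respond early to cold in Arabidopsis, a part was lower in sprayed leaves. Of 33 tested loci of this list, 12 were called lower and 0 higher, which is 36.4% lower against 5.22% of all tested loci, and 18 had an unadjusted p under 0.05, against 34.1%. The median log2 difference was −0.94. ZAT12, a zinc finger protein of cold and oxidative stress, was lower at BnaA10g12780D (log2 difference −3.07, SE 0.40, adjusted p = 0.00503) and BnaC09g35160D (−2.80, SE 0.28, adjusted p = 0.00344). BnaC09g35160D had sprayed group means of at most 1.12 scaled FPKM (water). It passed the filter through unsprayed libraries, which favours this direction. ZAT12 was also called higher under UV-B than in white light at 3 loci, by 3.80, 3.43 and 2.72 on the log2 scale, against 2.68% of all tested loci called higher there. After herbivory, against water, ZAT10 was called higher at 2 loci (3.41 and 2.26) and MYB44 at 1 (2.72), against 0.642% of all tested loci. At ZAT10 BnaC07g11700D (2.26) no sprayed library reached 1 scaled FPKM. That locus passed the filter only through unsprayed libraries, which favours this direction.

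Among the remaining cold-regulated genes, 6 of 31 tested loci were called lower in sprayed leaves and 0 higher, which is 19.4% lower against 5.22% of all tested loci. An unadjusted p under 0.05 was found at 13, against 34.1% of all tested loci, and the median was −0.38. The count was 3 with equal library totals and 4 with values as deposited. The dehydrin ERD14, a close relative of ERD10 and COR47, was lower at BnaAnng29030D, with 15.3, 41.5 and 51.1 scaled FPKM (lowest, median and highest) in sprayed libraries against 68.9, 128 and 302 scaled FPKM in unsprayed ones (log2 difference −2.03, adjusted p = 0.00702). ERD14 BnaA02g36030D was lower by a similar amount (−1.97, adjusted p = 0.0121), and so was COR413PM1 BnaA07g03740D, a membrane protein (−1.89, adjusted p = 0.0235). Another COR413PM1 locus, BnaA03g38950D, was higher under UV-B than in white light (2.31, adjusted p = 0.0143).

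Of 49 tested loci of abscisic acid and drought response genes, 16 were called lower in sprayed leaves and 0 higher, which is 32.7% lower against 5.22% of all tested loci, with 34 at an unadjusted p under 0.05, against 34.1%, and a median of −0.89. With values as deposited 13 were lower and 1 was higher. RD29B, a hydrophilic protein gene of the abscisic acid response, was lower at BnaA02g10970D, with 0.711, 2.39 and 5.21 scaled FPKM in sprayed libraries against 4.24, 39.8 and 100.2 scaled FPKM in unsprayed ones (log2 difference −3.28, adjusted p = 0.00579). The other called locus of RD29B, BnaC02g15270D, had −2.51 (adjusted p = 0.00875). After herbivory, NCED3, the rate-limiting enzyme of abscisic acid synthesis, was called higher than with water at 2 loci (2.35 and 1.89). P5CS1, a proline synthesis enzyme, was called higher at 1 (2.84), where the share over all tested loci was 0.642%. At both NCED3 loci no sprayed library reached 1 scaled FPKM, so they passed the filter only through unsprayed libraries, which favours this direction. Under UV-B, DREB2A, a relative of the CBFs in the dehydration response, was higher than in white light at 3 loci, by 3.68, 3.20 and 2.89. BnaC02g02310D (2.89) had a mean of 13.2 scaled FPKM under UV-B and at most 0.831 scaled FPKM in any other group. That locus passed the filter through its UV-B libraries, which favours this direction.

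Touch-response genes (TCH1 to TCH4, 3 of them with a locus) did not pass at any of 9 tested loci for sprayed minus unsprayed in limma, with 2 at an unadjusted p under 0.05, against 34.1% of all tested loci, and a median of 0.27. Harvest was 4 h after spraying, and earlier times were not measured.

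In single treatments the lists gave the following calls. For UV-B minus white light 1 of 56 upstream loci, 4 of 33 early cold factors, 3 of 31 other cold-regulated loci and 5 of 49 abscisic acid and drought loci were called higher, against 2.68% of all tested loci, and 1 early factor and 1 drought locus lower, against 0.861%. The upstream locus was PHYB BnaA05g22950D, the red light receptor phytochrome B (log2 difference 1.92, SE 0.37, adjusted p = 0.0331). For herbivory minus water 1 upstream locus, 3 early factors and 3 drought loci were called higher, against 0.642% of all tested loci, and none lower. Among these, the NCED3 loci and ZAT10 BnaC07g11700D had passed the filter only through unsprayed libraries. The upstream locus was MYB15 BnaA03g37010D, a repressor of CBF genes (2.38, SE 0.30, adjusted p = 0.0258). Its mean was 4.86 scaled FPKM after herbivory and at most 1.13 scaled FPKM in any other group. This locus passed the filter through its herbivory libraries, which favours this direction. Against white light, herbivory gave no call in any of these lists in limma, with 4 upstream, 3 early factor, 3 other cold-regulated, 14 of the 49 drought and 2 touch loci at an unadjusted p under 0.05, against 9.12% of all tested loci. MeJA minus water gave 1 call, against 0.449% of all tested loci, SFR2 BnaA05g30850D, a chloroplast membrane lipid enzyme needed for freezing tolerance (1.95, SE 0.32, adjusted p = 0.0437). Water minus white light gave 1 call as well, against 0.712% of all tested loci called lower, RD29B BnaA02g10970D (−4.07, SE 0.79, adjusted p = 0.0498).

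**Figure D5:**
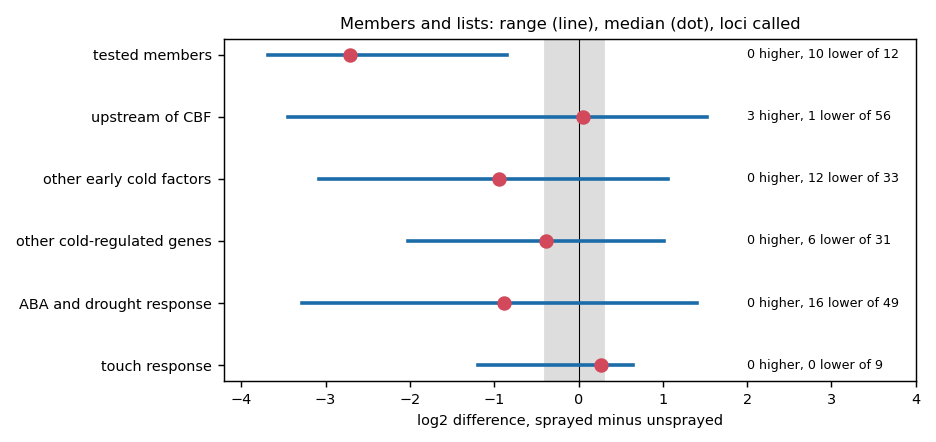
Log2 difference of sprayed minus unsprayed leaves for the 12 tested members and for 5 further lists; lines span the lowest to the highest locus, dots are medians, the grey band spans the lower to the upper quartile of all tested loci, and the text gives loci called. The member median is −2.71, the early cold factors follow at −0.94 and the abscisic acid and drought genes at −0.89, and the upstream and touch lists lie at 0.05 and 0.27.

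The pattern of the COR-type members was shared by other loci. The mean profile of the 11 tested COR-type loci over the 12 libraries was compared with the 50268 other tested loci. The 5 most alike by Pearson correlation were BnaC07g48950D, a peptidase M48 family protein (r = 0.976), BnaA06g19010D, the carboxylesterase CXE12 (0.967), BnaA07g06560D, the plastid fibrillin FIB4 (0.967), BnaA06g06370D, the ubiquitin ligase PUB18 (0.963), and BnaA07g29650D, the tyrosine phosphatase PTP1 (0.962). These correlations describe 12 libraries in 6 groups and share the difference between sprayed and unsprayed leaves. Of the members, COR15B BnaC03g23770D was closest to the common profile (0.978) and ERD10 BnaC05g15780D farthest from it (0.753). FIB4 BnaA07g06560D, for example, had 33.3, 49.1 and 64.5 scaled FPKM (lowest, median and highest) in sprayed libraries against 64.3, 134 and 338 scaled FPKM in unsprayed ones.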

How the data were processed

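RNA-seq libraries of leaves, 12 in 6 labelled groups of 2, were analysed from the deposited matrix. According to the submitters' processing notes the authors used TopHat2 2.1.12 and Cufflinks 2.2.1, and Arabidopsis names come from TAIR10. The matrix is named as counts, but its deposited values are FPKM, so limma was used in place of a count model. The build of the B. napus coordinates is not given in the sources used here. The authors' 4 comparison tables served for positions, Arabidopsis matches and test status. Their fold changes, p-values, group values and 38 columns of single libraries were not used.

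Each library was divided by the median, over 46905 loci above 0 throughout, of its values relative to the average library. Loci with at least 1 scaled FPKM in at least 2 libraries were tested, without 1 locus that Cuffdiff marked as having too much data. After a pseudocount of 1, log2 values were fitted with limma 3.58.1 (R 4.3.3), a mean per group, a variance trend and no block. Sprayed minus unsprayed is the mean of 3 groups minus the mean of the other 3. The fit was tested on simulated data. Depth is unknown, and read steps give relative counts in 10 libraries. FPKM floors and intervals were not computed.

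Named loci are the most abundant locus of each member gene and the called members, and up to 3 called loci per further list and comparison with the largest change. Members and lists were chosen with earlier results of these data known. Alternatives were the filter, the groups fitted, the replicate block, other scalings, pseudocounts of 0.1 and 0.5, no minimum change, leaving out each library, sums per Arabidopsis gene and other averages of groups. No sequences were used here.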

Additional observations from a re-analysis of the deposited data

Results flagged for a closer look

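Among the 6 sprayed and the 6 unsprayed libraries of the 12 tested members and CBF2 BnaC07g39680D, 26 sets were formed. In these, 9 values stood apart from the other 5 by Dixon's criterion for the gap relative to the range. About 1 of 20 sets drawn from a single normal distribution would meet it. That rate need not hold here, since the values were not logged and each set joins 3 groups. The unsprayed sets join 3 treatments, so a high value there can follow a treatment. UV-B 42 was the high value at 6 loci: 4017 scaled FPKM for KIN2 BnaA02g02910D (next highest 572), 1737 scaled FPKM for KIN2 BnaAnng37980D (576), 222 scaled FPKM for COR15B BnaA03g56750D (61.6), 109.6 scaled FPKM for COR15B BnaC03g23750D (41.6), 37.2 scaled FPKM for COR15B BnaA03g56740D (7.62) and 67.4 scaled FPKM for COR15B BnaC03g23770D (19.2). UV-B 41 was the high value for KIN2 BnaA10g18350D, at 11.6 scaled FPKM against 3.84 for the next. White light 41 was the high value for COR47 BnaA07g11450D, at 752 scaled FPKM against 282. Among sprayed libraries, ethanol and UN65 42 had 0.247 scaled FPKM for KIN2 BnaA10g18350D, where the other 5 were listed at 0. Beside 5 values of 0, any value above 0 meets the criterion.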

How the results depend on the processing

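For sprayed minus unsprayed, all alternatives kept the member median negative. The count of 10 members called lower stood with no filter, with the replicate block, with values as deposited, with equal totals and with either pseudocount. It was 4 of 6 genes when loci of 1 Arabidopsis gene were added, and 5 without MeJA and UV-B in the averages. Chosen after seeing the data were averages with 1 group on a side, which called 1 member with herbivory alone as the unsprayed group (median −1.22, COR15B BnaA03g56750D at 0.28 and COR15B BnaC03g23750D at 0.45), 5 with white light alone, 10 with UV-B alone (median −4.17), 6 with MeJA alone as the sprayed group, 4 with ethanol and UN65 alone and 6 with water alone. Beside these counts the shares of all loci called are not given here. Without the filter the median was −2.08, over more and lower loci. Leaving out 1 library gave 7 members (without ethanol and UN65 41) to 11 (without UV-B 41), at medians of −2.96 to −2.33. For water minus white light, 0 members were called with no filter, with the compared groups alone, with equal totals, with a pseudocount of 0.1 and with genes added, and 1 with a pseudocount of 0.5. The median was −2.22 without the filter. Leaving out 1 library gave 0 to 3 members and medians of −3.56 to −2.35. For UV-B minus white light the median was 0.40 without the filter and 0.53 with genes added, and leaving out 1 library gave 0 or 1 members and medians of 0.69 to 2.31. There, CBF1 BnaC03g71900D had −0.073 with equal totals and, leaving out 1 library, −0.91 to 1.12, COR47 BnaA07g11450D −1.50 to 0.14 and COR15B BnaC03g23770D −0.17 to 2.01. For herbivory minus white light, leaving out 1 library gave 0 or 1 members, medians of −1.88 to −0.92, and −2.25 to 0.00048 for KIN2 BnaA02g02910D. For herbivory minus water the median was 0.49 without the filter, 1.90 with a pseudocount of 0.1, and 0.48 to 1.97 leaving out 1 library. The cause of these shifts was not tested. A group left with 1 library was assumed to vary like the others. Other scalings moved the median of all loci, which lay at 0.18 for sprayed minus unsprayed as deposited and at 0.29 for herbivory minus white light with equal totals. Whether replicate numbers pair the libraries was not settled: deviations of same-numbered libraries correlated above 0.1 in 4 of 15 pairs of groups (−0.37 to 0.41). With the replicate block 10 members were called for sprayed minus unsprayed and 3 for water minus white light, where KIN2 BnaAnng37980D (adjusted p = 0.0375) and COR15B BnaC03g23770D (0.0428) were called in limma besides COR15B BnaA03g56650D, and ERD10 BnaC05g15780D (0.0504) was not. The compared groups alone could not be fitted for sprayed minus unsprayed, which uses all groups. Loci under about 1 scaled FPKM, the CBFs above all, rest on a few reads, and differences there were not resolvable.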
